A study of Mus musculus with 9 samples.

Results

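Cholesterol synthesis genes were followed in the fetal mouse brain as a group of 7: Hmgcs1, Fdft1, Sqle, Lss, Cyp51 and Dhcr7, which encode enzymes of the pathway, and Srebf2, which encodes the transcription factor SREBP-2 that switches the pathway on. They were chosen by symbol, and all 7 were found among the 27095 loci of the table; each had a mean FPKM (fragments scaled to transcript length and to the size of the library) of at least 1, as did 15455 loci in all. The dams were wild-type mice of the strain labelled C57BL/6 (C57BL/6J in the methods of the study) given 2.9 g/kg ethanol (EtOH) by intraperitoneal injection on gestational day (GD) 7, or lactated Ringer's solution as the control. RNA was taken on GD 17 from 9 fetuses in 3 groups of 3: control offspring, EtOH-exposed offspring without visible defects (unaffected), and EtOH-exposed offspring with them (affected). The groups of exposed offspring therefore share strain, dose and day of exposure and differ in outcome. Sex and litter did not enter the comparisons, and the study reports that most of its affected samples were female. The tissue is labelled fetal brain, and the methods of the study name the cortex.

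The table gives 1 FPKM per group and locus and no value per animal. The values carry no standard deviation, no difference below was tested here, since the group values used hold no spread between animals; the authors' own test columns were not used. A log2 difference of at least 0.32 either way, a ratio of 5 to 4 between groups, is used as a limit of size only. The 3 comparisons share groups, so they are not independent of each other. The sequencing depth is unknown. In whole tissue, fewer cells of a type and less RNA per cell cannot be told apart.

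Cholesterol is built from acetyl-CoA through mevalonate to squalene, which is closed into lanosterol and then trimmed to cholesterol. SREBP-2 is held in the endoplasmic reticulum while sterols are plentiful and is cut and sent to the nucleus when they run short, where it raises transcription of the synthesis enzymes and of its own gene. The fetal brain makes most of its own cholesterol, and the Hedgehog signals that pattern the forebrain depend on sterols.

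Srebf2 was the member furthest from control in affected offspring, and the 6 enzymes lay between 12.4% below control (Cyp51) and 12.7% above it (Lss). Srebf2 was at 48.5 FPKM in control, 46.6 FPKM in unaffected and 61.0 FPKM in affected offspring, which put the affected group 25.8% above control and 30.9% above unaffected (log2 fold changes 0.33 and 0.39). With the trend of fold change with transcript length removed, described below, these were 0.20 and 0.17, inside the limit, and Cyp51 at -0.25 was then further from control than Srebf2. The summed level of the 6 enzymes was 480.5 FPKM in control, 456.9 FPKM in unaffected and 458.4 FPKM in affected offspring, a ratio of affected to control of 0.954.

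**Figure D1:**
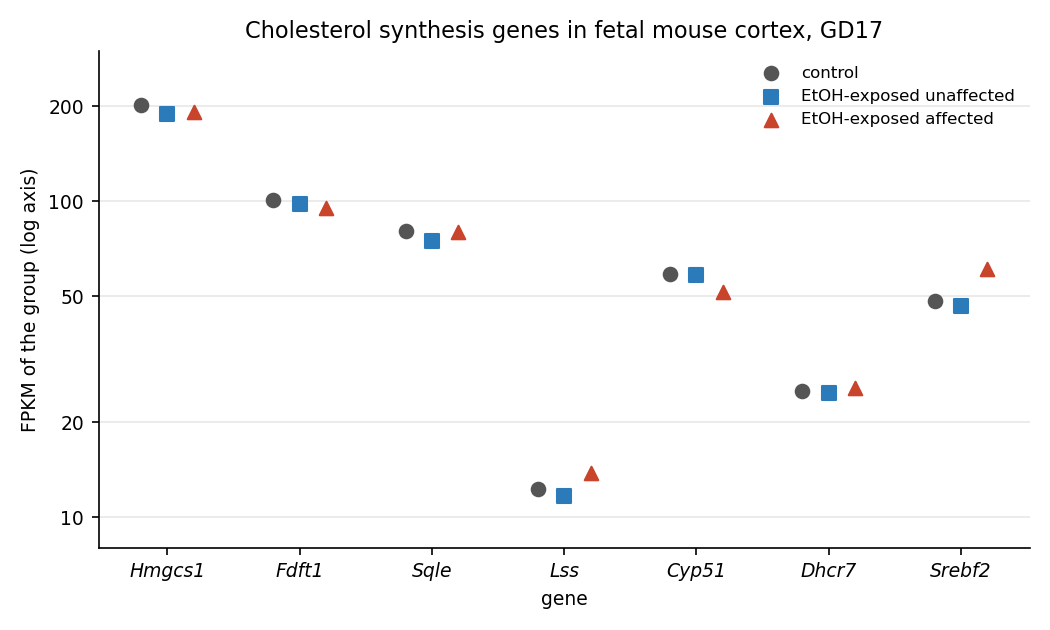
FPKM of the 7 genes (log axis) in control (circles), EtOH-exposed unaffected (squares) and EtOH-exposed affected (triangles) offspring, 1 value per group and no error bars because the table holds no value per animal. Srebf2 shows the widest gap, from 46.6 FPKM in unaffected to 61.0 FPKM in affected offspring.

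Hmgcs1 (chr13:119690434-119708077, mm10), the cytosolic HMG-CoA synthase of the mevalonate branch, was the highest of the 7. It was at 202.6 FPKM in control, 189.4 FPKM in unaffected and 192.1 FPKM in affected offspring. Both exposed groups were below control, by a log2 fold change of -0.10 in unaffected and -0.08 in affected offspring, and the exposed groups differed from each other by 0.02.

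Fdft1 (chr14:63122462-63177793) encodes squalene synthase, the first step committed to sterols. That interval is the locus as listed, and the GENCODE M21 model of the gene spans chr14:63145150-63179578. Its level was 100.8 FPKM in control, 98.1 FPKM in unaffected and 95.2 FPKM in affected offspring, a log2 fold change of -0.08 between affected and control. By the GENCODE M21 gene models, 774 exonic bases of Fdft1 (18.3%) lie over the opposite-strand gene Ctsb, and reads of such a stretch cannot be assigned without strand. Ctsb was at 57.0, 60.7 and 51.5 FPKM in control, unaffected and affected offspring, and its part in the Fdft1 values was not tested.

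Sqle (chr15:59315092-59331193), squalene epoxidase, was at 80.6 FPKM in control, 74.8 FPKM in unaffected and 80.0 FPKM in affected offspring. The affected and control values were alike, with a log2 fold change of -0.01. The unaffected group was the lowest, at a log2 fold change of -0.11 against control, the lowest value of the 7 genes in that comparison.

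Lss (chr10:76531622-76562226), lanosterol synthase, had the lowest level of the 7. It was at 12.3 FPKM in control, 11.7 FPKM in unaffected and 13.8 FPKM in affected offspring. The affected group was the highest, 0.17 above control and 0.24 above unaffected on the log2 scale, inside the limit of 0.32.

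Cyp51 (chr5:4080674-4104697), the lanosterol 14-demethylase, was the member with the lowest affected value relative to control. It was at 59.1 FPKM in control, 58.3 FPKM in unaffected and 51.8 FPKM in affected offspring. Control and unaffected offspring were alike and the affected group was 12.4% below control (log2 fold change -0.19). Cyp51 shares 166 exonic bases (3.76%) with Akap9 on the other strand, which was at 11.0 FPKM in control and 15.3 FPKM in affected offspring. The part of Akap9 in the Cyp51 values was not tested. Hmgcs1 (557 bases, 12.1%) and Lss (381 bases, 3.53%) share exonic bases with the opposite-strand genes Gm48342 and 4930483K19Rik, of which the latter was under 1 FPKM in each group.

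Dhcr7 (chr7:143823167-143848410), 7-dehydrocholesterol reductase, catalyses the last step, and its loss in people causes Smith-Lemli-Opitz syndrome. It varied least among the 7, at 25.1 FPKM in control, 24.7 FPKM in unaffected and 25.6 FPKM in affected offspring. The whole range was 3.70% of its mean, against 27.7% for Srebf2.

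In control offspring the order of the levels was Hmgcs1, Fdft1, Sqle, Cyp51, Srebf2, Dhcr7 and Lss, and unaffected offspring had the same order. In affected offspring Srebf2 stood above Cyp51. Relative to Cyp51 the level of Srebf2 was 0.820 for control, 0.799 for unaffected and 1.18 for affected offspring. Relative to Hmgcs1 it was 0.239, 0.246 and 0.317, and relative to Dhcr7 it was 1.93, 1.89 and 2.38. Against each of the 6 enzymes the ratio was highest in the affected group. With no value per animal the order of close neighbours, such as Cyp51 and Srebf2, cannot be set against a spread.

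The promoters are shown as background on the factors that bind sterol genes. Whether their sequence bears on the levels was not tested. RefSeq (GRCm38.p6) gave a start site for 5 of the 7 genes, and Sqle and Fdft1 are named only. For Hmgcs1 and Lss the first bases after this start were not found in a GENCODE M21 transcript of the gene. Their positions therefore hold for the RefSeq start only. Dhcr7 had 3 starts, of which the nearest to the start of its locus was used. The 250 bases before the start are printed 5′ to 3′ for Hmgcs1 (chr13:119690101-119690350, plus strand), Cyp51 (chr5:4104698-4104947, minus strand) and Srebf2 (chr15:82147019-82147268, plus strand). Capitals mark each match, on either strand, to the sterol regulatory element TCACNCCAC, the E-box CACGTG or the CCAAT box; no marked matches overlap.
Hmgcs1: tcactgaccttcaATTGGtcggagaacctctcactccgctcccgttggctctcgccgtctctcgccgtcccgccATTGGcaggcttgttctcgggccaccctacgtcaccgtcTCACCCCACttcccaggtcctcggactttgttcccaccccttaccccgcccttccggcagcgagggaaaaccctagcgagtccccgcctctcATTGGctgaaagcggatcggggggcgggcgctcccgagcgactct
Cyp51: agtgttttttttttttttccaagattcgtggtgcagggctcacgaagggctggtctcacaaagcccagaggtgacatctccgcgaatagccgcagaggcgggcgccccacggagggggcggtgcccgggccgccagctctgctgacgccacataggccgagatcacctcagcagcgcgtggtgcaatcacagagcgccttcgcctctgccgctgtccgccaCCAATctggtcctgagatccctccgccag
Srebf2: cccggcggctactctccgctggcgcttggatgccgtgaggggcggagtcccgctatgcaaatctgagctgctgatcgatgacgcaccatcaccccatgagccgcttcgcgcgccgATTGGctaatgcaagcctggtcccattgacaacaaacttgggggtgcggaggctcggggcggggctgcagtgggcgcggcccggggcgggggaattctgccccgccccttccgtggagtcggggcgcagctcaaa

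An exact match to TCACNCCAC, a known binding sequence of SREBP, was present in Hmgcs1 from position -137 to -129 relative to the start. None of the other 4 windows held an exact match. Only exact matches were searched for, so a window without one may still hold a related sequence. TCACNCCAC occurs in 1.05% of 32851 mouse promoter windows of this length. The CCAAT box, bound by NF-Y, which acts with SREBP at sterol genes, was found 3 times in Hmgcs1 and 1 time each in Lss, Cyp51 and Srebf2, and 33.8% of all windows hold it. The GC box GGGCGG, bound by Sp1 and not capitalised, was found in all 5 windows, 4 times in Srebf2, and occurs in 32.7% of all windows. CACGTG was found in none of the 5 and in 6.02% of all windows. A match describes letters in the window and is no evidence of binding.

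Srebf2 (chr15:82147236-82205436) also carries Mir33 in an intron. Its mature product mmu-miR-33-5p (chr15:82198127-82198147, plus strand), which targets cholesterol efflux genes, is printed with its seed, bases 2 to 8, in capitals.
mmu-miR-33-5p: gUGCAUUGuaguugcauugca
The Mir33 locus is listed at 0 in all 3 groups of this messenger RNA table, so the host gene's difference could not be followed in the microRNA.

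Unaffected against control offspring asks what exposure did where no defect followed. All 7 genes were slightly below control, between -0.11 and -0.02 on the log2 scale, with a median of -0.06 against 0.01 over all 15455 loci. None of the 7 passed the limit in either direction, where 5.53% of all loci were higher and 6.99% lower by that much. All 7 were also below 0 under median and upper quartile scaling, and 5 of 7 with the transcript length trend removed, at a median of -0.02.

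Affected against control offspring sets the defect against no exposure. Srebf2 was the 1 member past the limit, at a log2 fold change of 0.33, where 12.6% of all loci were higher by as much as the limit; 11.8% of loci were at least as high as Srebf2 itself. No member was lower past the limit, where 11.5% of all loci were. Of the 7 genes 3 were above 0 and 4 below, and their median of -0.01 lay close to the 0.02 of all loci.

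Affected against unaffected offspring compares animals of the same exposure with different outcomes. Srebf2 was again the 1 member past the limit, at a log2 fold change of 0.39, where 20.7% of all loci were higher past the limit. No member was lower past the limit, against 18.5% of all loci. The median of the 7 was 0.05 and that of all loci 0.01. With 1 of 7 higher and 0 of 7 lower, the members' counts were below the shares of all loci in this comparison; 7 genes are too few to read more from the counts.

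**Figure D2:**
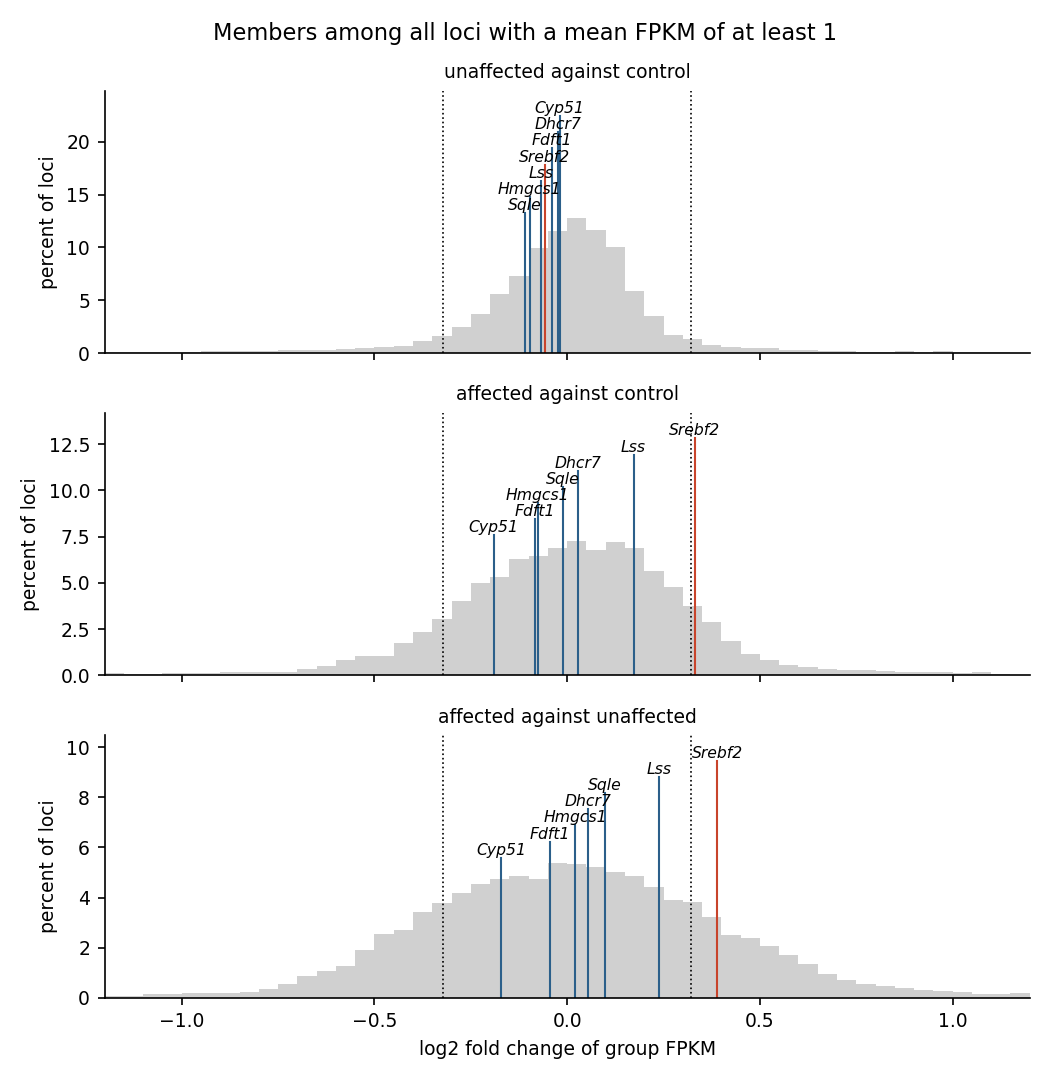
Percent of the 15455 loci in each interval of log2 fold change of group FPKM (grey bars) for the 3 comparisons, with a line at the value of each of the 7 genes and dotted lines at the limit. The 6 enzymes lie inside the dotted lines in each panel, and Srebf2 (red) lies just outside at 0.33 and 0.39 in the comparisons with the affected group.

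Srebf2 has the longest transcript of the 7, at 5077 nt, and fold changes followed transcript length across the whole table. Over 12473 loci with a length, the Spearman correlation of length with the log2 fold change was -0.53 for unaffected against control, 0.55 for affected against control and 0.64 for affected against unaffected, given as a description because loci share libraries and base composition. Between affected and control offspring the median was -0.25 for transcripts under 1500 nt and 0.19 for those of 5000 nt or more, where 23.5% of loci were higher past the limit. With the running median by length removed, Srebf2 was at 0.20 against control and 0.17 against unaffected, still the highest of the 7 against control but inside the limit in both comparisons. On that scale Cyp51 was at -0.25 against control and Lss at 0.07. Whether the trend comes from the libraries or the tissue was not tested.

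**Figure D3:**
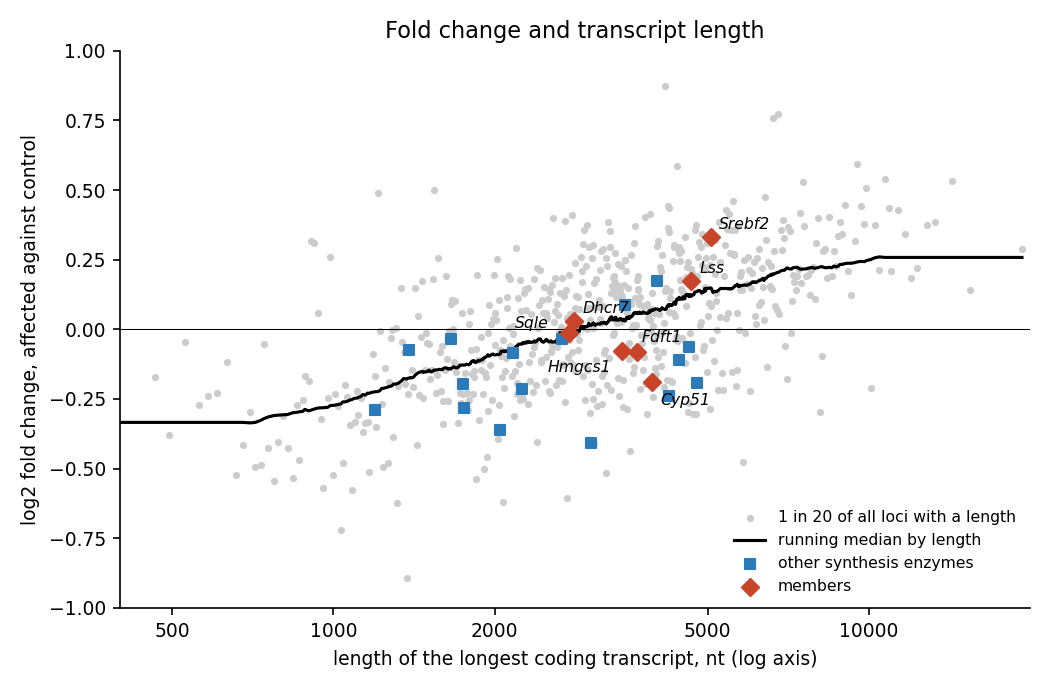
Log2 fold change of affected against control offspring by length of the longest coding transcript (log axis); grey points are 1 in 20 of the loci with a length, the line is the running median by length, diamonds are the 7 genes and squares the other synthesis enzymes. Srebf2, at 5077 nt and 0.33, lies above the line by less than it lies above 0, and Cyp51 lies below the line.

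The other enzymes of the pathway mostly lay below control in affected offspring. Across both branches 22 enzymes had a value, of which 18 were below 0 in affected against control offspring at a median of -0.08, where 53.0% of all loci were above 0. Of the 22, 2 were lower past the limit and 0 higher, against 11.5% and 12.6% of all loci, so the count past the limit was near the background for lower values. The 16 enzymes outside the group of 7 had a median of -0.15, and of -0.10 with the length trend removed. Summed over all 22, the level was 1190 FPKM in control, 1167 FPKM in unaffected and 1094 FPKM in affected offspring. Tm7sf2 sits on a locus joined with Vps51 and Zfpl1, whose level cannot be divided among them; without it the 21 enzymes summed to 1139, 1113 and 1045 FPKM, 17 were below 0 and the median was -0.08. With the length trend removed 14 of 22 were below 0 and the median was -0.08.

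All 9 enzymes of the mevalonate branch were below 0 in affected against control offspring, with a median of -0.22. With the length trend removed 7 of 9 were below 0 and the median was -0.14, and in affected against unaffected offspring the median went from -0.22 to -0.01. Idi1, the isopentenyl diphosphate isomerase, was at 52.5 FPKM in control, 51.4 FPKM in unaffected and 39.6 FPKM in affected offspring. The affected group alone was low, with a log2 fold change of -0.41 against control, and the value stayed at -0.41 with the length trend removed. Pmvk, phosphomevalonate kinase, was past the limit in affected against unaffected offspring, at -0.34; its transcript is short (1194 nt), and the value was 0.01 with the length trend removed.

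In the squalene and sterol branch 13 enzymes had a value, 9 of them below 0 in affected against control offspring, with a median of -0.06. With the length trend removed 7 of 13 were below 0 and the median was -0.003. Sc4mol, the sterol C4-methyl oxidase now named Msmo1, was at 73.0 FPKM in control, 76.7 FPKM in unaffected and 56.8 FPKM in affected offspring. Against control the log2 fold change was -0.36, and against unaffected it was -0.44; the values were -0.26 and -0.28 with the length trend removed. Both enzymes past the limit against control, Idi1 and Sc4mol, were thus low in the group in which Srebf2 was high.

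The partners that hold, carry and cut SREBP-2 were listed with the factors NF-Y and Sp1, 13 genes in all, and Srebf2 was the 1 past the limit in affected against control offspring, where 12.6% of all loci were higher. The list holds Scap, which escorts SREBP-2 out of the endoplasmic reticulum, and Insig1 and Insig2, which retain the complex when sterols are plentiful. In affected against control offspring 9 of the 13 were above 0 and 4 below, from -0.27 to 0.33. The list's median was 0.05, and -0.02 with the length trend removed.

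Receptors and lysosomal carriers for cholesterol uptake, 11 genes with a value, included 1 past the limit in affected against control offspring, a higher one, where 12.6% of all loci were higher, and 5 in affected against unaffected, 4 higher and 1 lower, where 20.7% of all loci were higher and 18.5% lower. Lrp1, a large endocytic receptor for lipoproteins, was at 8.15 FPKM in control, 6.19 FPKM in unaffected and 11.0 FPKM in affected offspring. It was lower past the limit in unaffected and higher past it in affected offspring against control, at -0.40 and 0.43, and its transcript is the longest of the lists at 14888 nt. Lrp8, the reelin and lipoprotein receptor, was at 26.4, 23.5 and 32.7 FPKM, and Npc2, the lysosomal sterol carrier and the highest gene of the list, at 49.8, 54.4 and 42.8 FPKM in control, unaffected and affected offspring. Lrp8 was thus highest and Npc2 lowest in the affected group. With the length trend removed, Lrp1 was inside the limit against control, at -0.20 in unaffected and 0.19 in affected offspring, and past it in affected against unaffected offspring, at 0.39 (0.83 before). Lrp8 was then at 0.13 in affected against control offspring. Npc2, the lower gene past the limit in affected against unaffected offspring, was at -0.35, and at -0.41 with the trend removed. Npc1, which exports sterol from the lysosome, was at 7.03, 6.28 and 8.12 FPKM. It was higher past the limit in affected against unaffected offspring, at 0.37, and at 0.16 with the length trend removed.

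Efflux and storage genes, 10 with a value, included 2 higher and 1 lower past the limit in affected against control offspring, where 12.6% of all loci were higher and 11.5% lower. Apoe, the main apolipoprotein of the brain and the highest gene of the list, was at 170.6 FPKM in control, 171.0 FPKM in unaffected and 118.8 FPKM in affected offspring. The affected group alone was low, at -0.52 against control, the lowest value of the 7 lists, and at -0.33 with the length trend removed, still past the limit. Apoe is made mainly by astroglia. The summed level of 6 astroglia markers was also lower in affected offspring (1528 FPKM against 2216 FPKM in control), but most of that sum was Fabp7. Fabp7 was at -0.58 against control, and at -0.27 with the length trend removed. Of the 6 markers 5 were below 0 and 1 above, with a median of -0.23, and -0.19 with the trend removed. The part of astroglia in the Apoe value was not tested. Abca1, the exporter of cholesterol to lipoproteins and a known miR-33 target, was at 4.45 FPKM in control, 3.98 FPKM in unaffected and 5.86 FPKM in affected offspring. Abcg1, a related exporter, was at 3.53, 3.37 and 4.45 FPKM. Both were highest in the affected group, 0.40 and 0.33 above control on the log2 scale, and at 0.15 and 0.19 with the length trend removed. In affected against unaffected offspring 4 were higher and 1 lower, against 20.7% and 18.5% of all loci, with Apoe at -0.53, Abca1 at 0.56, and Abcg1 and Abcg4 at 0.40 each. With the length trend removed these 4 genes were inside the limit, at -0.25, 0.12, 0.17 and 0.29.

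Fatty acid synthesis, which the related factor SREBP-1 controls, gave 1 of 12 genes past the limit in affected against control offspring, a higher one, where 12.6% of all loci were higher. Fasn, fatty acid synthase, was at 32.8 FPKM in control, 24.6 FPKM in unaffected and 45.9 FPKM in affected offspring. It was low in unaffected and high in affected offspring, at -0.41 and 0.49 against control on the log2 scale, and at -0.23 and 0.25, inside the limit, with the length trend removed. Between affected and unaffected offspring it was at 0.90, and at 0.47 with the trend removed, still past the limit. In affected against unaffected offspring Acaca, acetyl-CoA carboxylase, was at 0.47 and Scd2, a stearoyl-CoA desaturase on a locus joined with Mir5114, was at 0.46. With the length trend removed they were at 0.05 and 0.26, inside the limit.

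Of the sterol-dependent Hedgehog list 5 genes had a mean FPKM of at least 1, and 3 were higher past the limit in affected against control offspring, where 12.6% of all loci were. Gli2 was at 1.89 FPKM in control, 1.97 FPKM in unaffected and 3.20 FPKM in affected offspring, and Gli3, which acts mainly as a repressor, at 3.01, 2.70 and 4.76 FPKM. Both Gli factors were highest in the affected group, at 0.76 and 0.66 on the log2 scale against control, and at 0.58 and 0.45 with the length trend removed. Disp1, which releases the sterol-bearing ligand, was at 0.44, and at 0.30, inside the limit, with the length trend removed, when 3 of the 5 genes were above 0. Smo, the membrane transducer of the signal and the highest gene of the list, was at 12.5, 13.9 and 12.8 FPKM, inside the limit. Over all 7 lists, 73 genes had a value; 8 were higher and 3 lower in affected against control offspring, where 12.6% and 11.5% of all loci were. In unaffected against control offspring 0 were higher and 2 lower, against 5.53% and 6.99% of all loci. In affected against unaffected offspring 14 were higher and 5 lower, against 20.7% and 18.5%.

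**Figure D4:**
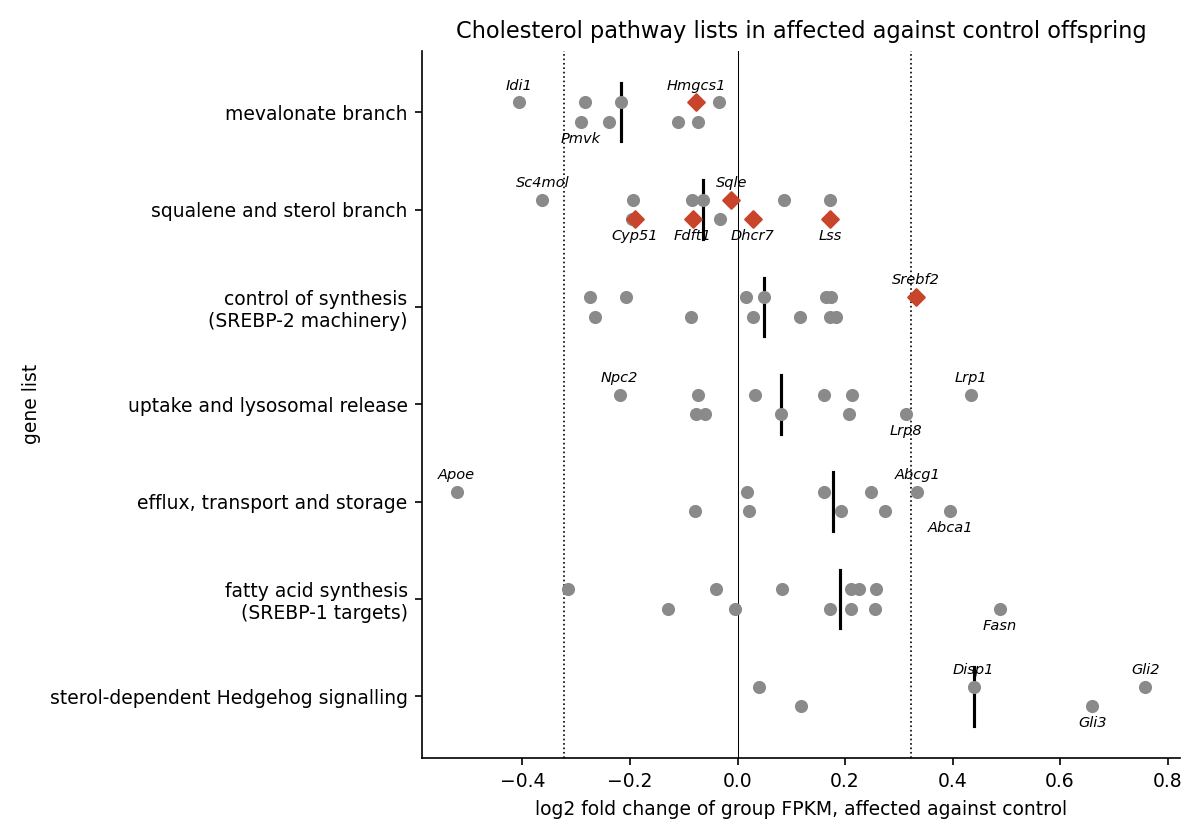
Log2 fold change of group FPKM in affected against control offspring for the genes of the 7 lists with a mean FPKM of at least 1; each point is a gene, diamonds are the 7 followed genes, thick bars are list medians and dotted lines mark the limit. The 9 mevalonate enzymes all lie left of 0, and the 5 Hedgehog genes lie right of it; with the length trend removed 7 of 9 and 3 of 5 did.

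The loci nearest to the median point of the 7 genes, at -0.06 for unaffected and -0.01 for affected against control, were Sec62, Msl3l2, Fez2, Gid8 and Tm9sf3, at log2 distances of 0.0037 to 0.0077, over 3 group values only. Srebf2, at -0.06 and 0.33, lay away from that point.

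Markers of cell types moved with the groups, and their part in the values above was not tested. The summed FPKM of 6 cortical neuron markers came to 758 for control, 680 for unaffected and 866 for affected offspring, and none was at 0. That of 6 astroglia markers, a cell type rich in cholesterol synthesis, was 2216, 2363 and 1528, mainly Fabp7. The 6 oligodendrocyte lineage markers summed to 46.0, 43.4 and 39.6, and the sum for 4 red blood cell loci was 456, 595 and 371. The median log2 fold change of those 4 loci in affected against control offspring was -0.19, and 0.04 with the length trend removed. The 4 thalamus markers summed to 9.46, 7.26 and 7.19. Radial glia and progenitor markers summed to 391, 406 and 472, choroid plexus markers to 995, 1322 and 1107, endothelial markers to 56.3, 56.8 and 59.2, and meningeal markers to 68.2, 62.6 and 59.4. Neuron and radial glia sums were thus highest, and astroglia and oligodendrocyte sums lowest, in the affected group.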

How the data were processed

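Whole-genome messenger RNA was measured in 9 fetal mice, 3 per group. The authors prepared TruSeq RNA libraries, which do not keep strand, and aligned them to mm10; the methods name STAR with Bowtie and TopHat, and the submitters' processing notes name Bowtie2 2.2.4.0 with Cufflinks and Cuffdiff. The deposited table holds FPKM, which the authors computed per group with replicates pooled; 0 columns hold single animals. The authors' own fold changes, test statistics, p-values and q-values in that table were not used. Depth is not given, so no counting interval or test was made.

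Group values were compared as log2 ratios with python 3.11.15, pandas 2.3.3, numpy 2.4.6 and scipy 1.17.1, over loci with a mean FPKM of at least 1 and a value above 0 in each group. No pseudocount was added. The limit was 1.25-fold either way. Alternatives were limits of 1.1-fold and 1.5-fold, a mean FPKM of at least 5, a pseudocount of 1 FPKM, median and upper quartile scaling, and removal of the running median over 501 loci by transcript length or GC content, with the median over loci added back. Lengths are those of the longest coding GENCODE M21 transcript and were found for 80.7% of loci. The counts and the trend removal were checked on simulated data; the running median left part of a trend only at the ends of the length range, where 0 of the 7 genes and 1 other listed gene lie.

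The 7 genes and the lists were chosen with earlier results of these data known. Genes named are the 7, up to 4 per list and comparison past 1.25-fold, the highest of each list and the 5 nearest patterns; 1 gene that this rule picks is not reported here. Locus starts are printed counting from 1.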

Additional observations from a re-analysis of the deposited data

How the results depend on the processing

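Srebf2 stayed above 0 in affected against control and against unaffected offspring under all 5 changes of scale, pseudocount or trend, from 0.20 to 0.33 and from 0.17 to 0.39 on the log2 scale. Its place past the limit did not hold: against control 0 of the 7 genes were higher under a 1.5-fold limit, median centring, removal of the length trend or removal of the GC trend, and against unaffected 0 were under a 1.5-fold limit or removal of either trend. With a 1.1-fold limit 2 were higher and 1 lower in each of these comparisons. Over all lists, a 1.1-fold limit gave 5 higher and 12 lower genes in unaffected against control, and 28 higher and 15 lower in affected against control and also in affected against unaffected, of 73; of all loci 19.4% and 21.0%, 33.5% and 28.9%, and 37.2% and 35.0% were, in the same order. A 1.5-fold limit left 0 lower in each comparison, where 3.03%, 3.1% and 5.1% of all loci were, in the same order. It left 2 higher in affected against control and 4 in affected against unaffected, where 3.47% and 7.19% of all loci were higher. Removal of the length trend left 0 lower in unaffected against control, 2 higher in affected against control and 5 higher in affected against unaffected, where 1.35%, 4.59% and 8.15% of all loci were, and removal of the GC trend gave 5 lower in affected against control, where 9.60% were. A mean FPKM of at least 5 left 3 higher in affected against control and 9 in affected against unaffected, where 8.82% and 17.1% of all loci were. Of 105 values of single members under the alternatives 6 differed in sign from the value reported, and the largest move was 0.22. The cause of these moves was not tested, except that stricter limits and filters keep fewer genes by construction.

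No paired analysis was possible because the table has no value per animal, and leaving out each animal in turn was not run for the same reason. The group values have no measured spread.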
